A study of Mus musculus with 20 samples.

Results

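Iron regulatory protein 2 (IRP2) was used as bait to recover mRNAs from mouse spleen, and the recovered RNA was compared with that of a control reaction without the protein. The comparison covers the 4 of 20 arrays whose titles name spleen, 2 from IRP2 reactions and 2 from control reactions, paired by replica number. The spleen RNA came from 4 pooled C57BL6/J mice, female and male, weaned onto a diet holding under 10 mg of iron per kg and kept on it for 21 days. In the IRP2 reaction, 50 µg of this RNA met recombinant IRP2 with a His tag, made in E. coli, and a mouse monoclonal antibody to the tag; the control reaction lacked only IRP2. About 120 ng of recovered RNA per reaction was amplified and read on the Affymetrix Mouse Genome 430 2.0 array. The remaining 16 arrays hold the same reactions in duodenum and liver, from mice on the same diet, and in bone marrow and brain, from 6 pooled mice per tissue aged 8 to 10 weeks on an iron-normal diet. The sources used here do not say whether the 2 replicates drew on 1 RNA pool, and this was not tested. Levels of liver, fat and pancreas markers differed between the pairs, as given below. The p-values rest on a spread between arrays that may be technical only. The protein was added to purified RNA, so every value concerns RNA recovered in a tube, not binding in the cell.

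IRP2 is a cytosolic RNA-binding protein that recognises the iron-responsive element (IRE), a short stem-loop in untranslated regions of mRNAs of iron metabolism. When cells lack iron, IRP2 bound upstream of the coding sequence blocks translation, as for the ferritins, the iron exporter ferroportin and the erythroid enzyme of heme synthesis; bound downstream of it, as in the transferrin receptor mRNA, it protects the mRNA from decay. The mouse spleen is where macrophages of the red pulp take iron out of old red cells, where red cell precursors can mature, and where B and T cells gather.

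Of 45101 probe sets, 23657 (52.5%) were at or above the array's median on at least 1 spleen array and were tested. The array medians lay between 5.39 and 5.41 on the log2 scale, and the arrays correlated with each other at Spearman's rho of 0.980 to 0.988 over the tested probe sets. All 11 B cell, all 11 T cell and all 13 red pulp macrophage marker genes on the array reached the median on all 4 spleen arrays, as did 16 of 17 erythroid markers. So did all 13 pancreas acinar markers, genes of digestive enzymes. The other lists had 5 of 7 NK cell, 6 of 7 plasma cell, 8 of 9 stroma, 10 of 11 neutrophil, 7 of 7 megakaryocyte and 2 of 5 fat markers there. Among all 45037 probe sets other than Affymetrix controls, 21313 reached the median on all 4 spleen arrays. The summed level of the pancreas markers was 13.6 and 14.1 (log2) in the IRP2 arrays and 13.4 and 14.0 in the controls, higher in both arrays of pair 2. The 9 liver markers summed to 8.43 and 10.6 with IRP2 and to 8.53 and 10.5 without, again higher in pair 2, and 4 of them reached the median on all 4 arrays. The 5 fat markers summed to 10.2 and 8.96 with IRP2 and to 9.98 and 8.99 without, lower in pair 2. The liver marker Alb, on 1425260_at, read 4.95 with IRP2 and 4.99 without in pair 1, and 9.58 and 9.49 in pair 2. The pairs thus differed in these markers while the reactions within a pair lay close together. In bulk RNA, fewer cells of a type and less RNA per cell cannot be told apart. Among the other tissues, bone marrow control 1 stood apart: its rho with the spleen arrays averaged 0.869, where the other 3 bone marrow arrays gave 0.757 to 0.761. The spread of all tissues enters the error of each, so counts are also given without the bone marrow arrays.

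With IRP2, 89 probe sets (0.376% of those tested) were higher than in the control and 4 (0.0169%) were lower. The 89 belonged to 54 named genes, plus 22 probe sets without a single symbol in the annotation. They were led by the transferrin receptor Tfrc, the chemokine Cxcl16, the GTPase-activating protein subunit Ralgapa1 and the receptor chaperone Lrpap1, and they included each of the 6 genes with a textbook IRE reported here. Their log2 ratios, IRP2 over control, ran from 0.77 to 4.09 with a median of 1.33, against -0.03 over all tested probe sets. A 2-fold difference was reached by 80 of the 89 and a 4-fold difference by 15. In 88 of the 89, both IRP2 arrays lay above both controls, an arrangement seen in 15.8% of all tested probe sets; both IRP2 arrays lay below both controls in 20.6%, the 4 lower probe sets among them. The calls came from limma with the tissue and replicate number as a block, and an adjusted p under 0.05 over the 23657 probe sets. Without the block, 26 were higher and 0 lower (262 and 23 at an unadjusted p under 0.05). Without the bone marrow arrays, 307 (1.3%) were higher and 31 (0.131%) lower, and these held all 89 and all 4; without pair 1 there were 11 and 0 and without pair 2 there were 16 and 0.

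**Figure D1:**
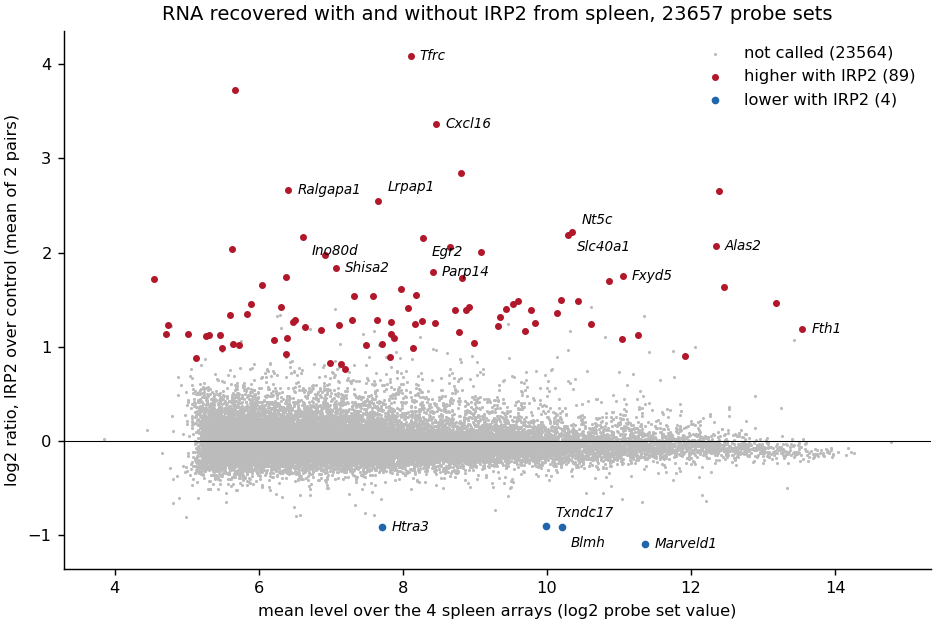
Log2 ratio of the IRP2 reaction to the control (vertical axis, mean of 2 pairs) against the mean log2 value over the 4 spleen arrays (horizontal axis), 1 point per tested probe set. The 89 called higher (red) span the range of levels and reach 4.09; the 4 called lower (blue) lie between -1.09 and -0.90.

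Among the 89, the ratios of the pairs lay a median of 0.23 apart on the log2 scale; in 13 they were over 0.5 apart, up to 1.26 in Tfrc 1422967_a_at. For these 89, the lowest control mean was 3.69 and the highest 12.9 on the log2 scale. In 17 both controls lay below the array median, so these were tested through their IRP2 arrays only. Of all 23657 tested probe sets, 531 had both controls below it. Under a filter that required all 4 spleen arrays at or above their medians, 69 of 21313 probe sets were higher. Across all tested probe sets the pair ratios had SDs of 0.244 and 0.239 and a Pearson correlation of 0.427, a description across probe sets that share 4 arrays.

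**Figure D2:**
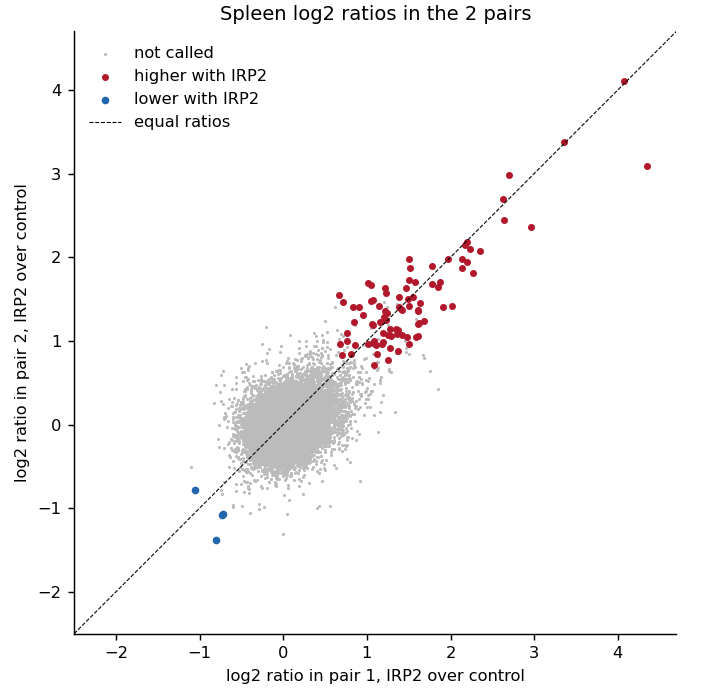
Log2 ratio of each tested probe set in pair 1 (horizontal axis) and pair 2 (vertical axis), with the line of equal ratios dashed. The red points, called higher, lie above 0 in both pairs; the widest departure among the highest ratios is the second Tfrc probe set at 4.35 and 3.09.

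The study asks which mRNAs IRP2 binds, and mRNAs known to carry an IRE are the natural first group. Of 8 such genes listed, only 6 were measured by probe sets with a single symbol. These 6 had 13 tested probe sets, of which 9 (69.2%) were higher with IRP2 where 0.376% of all tested were. Of the 13, 2 passed the filter through their IRP2 arrays only, Tfrc 1422967_a_at and Epas1 1449888_at, and both are among the 9; of the other 11, 7 were higher. At each gene's probe set with the highest mean, the median ratio was 1.29 and all 6 were above 0. The list was drawn up with earlier results of these data known.

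Tfrc, the receptor that takes up iron-laden transferrin, had the highest ratio of any probe set. Its probe set 1422966_a_at read 9.90 and 10.42 with IRP2 and 5.82 and 6.31 in the controls, a log2 ratio of 4.09 ± 0.33 (SE), or 17.0-fold (limma adjusted p = 0.000141). The ratio is the mean of 2 spleen pairs, whereas the SE, here and below, draws on the spread of all tissues in the fit. The probe set 1422967_a_at read 7.82 and 7.26 with IRP2 and 3.47 and 4.17 without, a ratio of 3.72 ± 0.53 (limma adjusted p = 0.00838). The groups stood far apart in both, although both controls of the second lay below their array medians. The third, 1452661_at, read 13.99 and 13.84 against 12.48 and 12.42, a ratio of 1.46 ± 0.20 (limma adjusted p = 0.00518). The 3 probe sets of this gene therefore differed in ratio by up to 2.63 on the log2 scale, with IRP2 above control in each.

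Slc11a2 encodes the divalent metal importer that moves iron out of the endosome. Probe set 1452078_a_at read 9.28 and 9.56 with IRP2 and 7.90 and 8.16 without, a ratio of 1.39 ± 0.23 (limma adjusted p = 0.0217). Probe set 1426441_at was not called, at 0.68 ± 0.15 (limma adjusted p = 0.124), but was without the bone marrow arrays (limma adjusted p = 0.0085). Its IRP2 arrays, 6.40 and 6.38, lay above the controls at 5.67 and 5.75, as in 15.8% of all tested probe sets. Probe set 1417584_at was at -0.22 ± 0.18. Both its IRP2 arrays, 7.52 and 7.82, lay below the controls at 7.91 and 7.88, as in 20.6% of all tested probe sets. This gene is known to make mRNAs with and without the IRE; which probe set reads which form is not given in the files used here.

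Slc40a1 encodes ferroportin, the iron exporter through which red pulp macrophages release recycled iron. Probe set 1448566_at read 11.34 and 11.44 with IRP2 and 9.14 and 9.26 without, a ratio of 2.19 ± 0.17 (4.56-fold; limma adjusted p = 0.000141). Probe set 1417061_at read 12.73 and 12.57 against 12.49 and 12.29, a ratio of 0.26 with a 95% interval from -0.18 to 0.70. In that probe set both IRP2 arrays lay above both controls, as in 15.8% of all tested probe sets. The 95% interval of the first probe set ran from 1.82 to 2.56, and the difference between the probe sets was not tested.

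Fth1, the heavy subunit of the iron store ferritin, read 14.14 and 14.14 with IRP2 and 12.99 and 12.91 without on 1427021_s_at, a ratio of 1.19 ± 0.17 (limma adjusted p = 0.00838). On 1448771_a_at it read 14.03 and 13.90 against 12.90 and 12.88, a ratio of 1.07 ± 0.23 that missed the threshold (limma adjusted p = 0.0934) but passed it without the bone marrow arrays (limma adjusted p = 0.000101). These levels are near the top of the arrays' range, 14.8, where probes can saturate, and Fth1 has near-identical pseudogene copies, so its values are uncertain in size. Alas2, the erythroid enzyme of the opening step of heme synthesis, read 13.50 and 13.27 with IRP2 and 11.30 and 11.33 without, a ratio of 2.07 ± 0.19 (limma adjusted p = 0.000342). Epas1, an oxygen-regulated transcription factor, read 12.06 and 11.60 against 10.69 and 10.72 on 1435436_at, a ratio of 1.13 ± 0.18 (limma adjusted p = 0.0157). Its other probe set, 1449888_at, read 6.09 and 6.23 against 5.25 and 5.01, a ratio of 1.03 ± 0.17 (limma adjusted p = 0.0217). For all 3 genes the IRP2 arrays lay above both controls on every probe set tested.

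**Figure D3:**
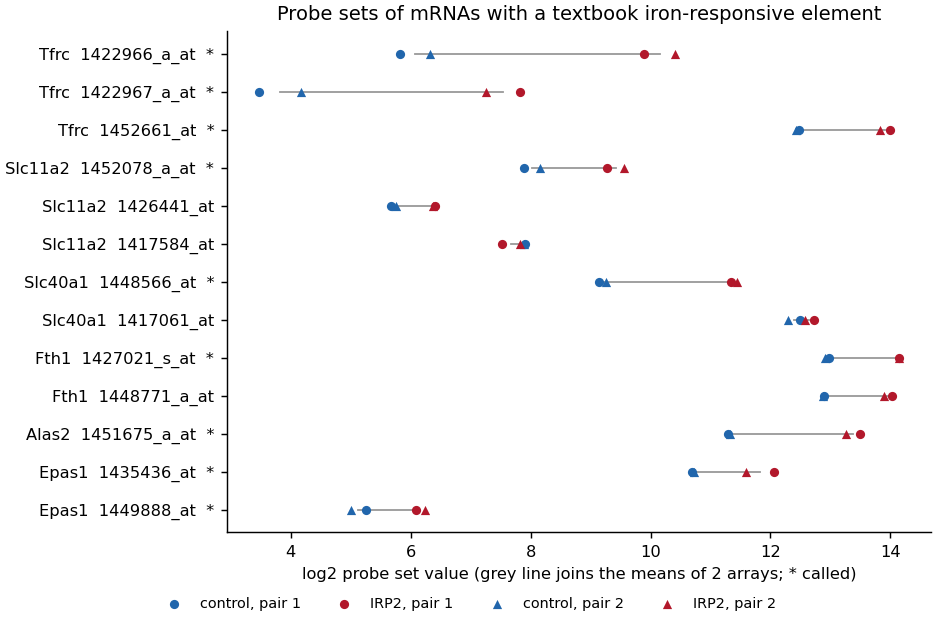
Log2 value of each spleen array (horizontal axis) for the 13 tested probe sets of 6 mRNAs with a textbook IRE; red marks are IRP2 arrays, blue marks controls, circles pair 1 and triangles pair 2. In 12 of 13 both IRP2 arrays lie above both controls, an arrangement seen in 15.8% of all tested probe sets. Slc11a2 1417584_at is the exception.

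Of a list of further mRNAs with reported IRP binding, 6 genes with 10 probe sets were tested, and 2 probe sets of 1 gene were higher, where 0.376% of all tested were. This was Pfn2, a profilin that binds actin: 1418209_a_at read 9.31 and 8.84 with IRP2 and 7.93 and 7.71 without, a ratio of 1.25 ± 0.19 (limma adjusted p = 0.0121), and 1418210_at gave 1.18 ± 0.18. The third Pfn2 probe set was at 0.96 ± 0.18 (limma adjusted p = 0.0538; 0.00222 without the bone marrow arrays). The amyloid precursor App, at 0.16 and 0.21, the prion protein Prnp, at 0.07 and -0.01, and the respiratory subunit Ndufs1, at -0.08, were not called, nor were Cdc14a and Cdc42bpa.

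Most of the called genes lie outside textbook iron metabolism. Cxcl16, a membrane-bound chemokine that also acts as a scavenger receptor on macrophages, read 10.10 and 10.20 with IRP2 and 6.74 and 6.83 without on 1449195_s_at. Its ratio of 3.37 ± 0.17, 10.3-fold, had the smallest p of any spleen probe set (limma adjusted p = 4.18e-06). On 1418718_at it read 10.07 and 10.40 against 7.37 and 7.42, a ratio of 2.84 ± 0.19. Neither probe set showed overlap between the reactions. The chemokine's receptor Cxcr6 was at -0.12, the proteases Adam10 and Adam17 that shed it were between -0.09 and 0.13, and the other membrane-bound chemokine Cx3cl1 was at -0.01 and -0.14, none of them called.

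Lrpap1, a chaperone of the endoplasmic reticulum that keeps receptors of the LDL receptor family from binding ligand too early, read 9.10 and 8.77 with IRP2 and 6.45 and 6.33 without on 1452148_at. Its ratio there was 2.54 ± 0.23 (limma adjusted p = 0.000279), and on 1426697_a_at it was 2.00 ± 0.16. Its other 2 probe sets were at -0.02 and -0.08, with 95% intervals of -0.39 to 0.34 and -0.40 to 0.23. Of the receptors it serves, Lrp1 (0.07 and 0.23), Lrp8 (-0.16) and Sorl1 (0.04 to 0.39) were not called.

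Ralgapa1, which switches off the small GTPase Ral, read 7.93 and 7.55 with IRP2 and 4.97 and 5.20 without, a ratio of 2.66 ± 0.22 (limma adjusted p = 0.000159). Both its controls lay below their array medians, so it was tested through its IRP2 arrays only. Nt5c, a cytosolic nucleotidase, read 11.50 and 11.43 against 9.14 and 9.35, a ratio of 2.22 ± 0.23. Ino80d, part of a chromatin remodelling complex, read 7.70 and 7.69 against 5.46 and 5.59, a ratio of 2.17 ± 0.17. The IRP2 arrays of all 3 genes lay at least 2 log2 units above the higher control.

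Egr2, a zinc finger transcription factor of the early growth response family, read 9.35 and 9.37 with IRP2 and 7.18 and 7.23 without on 1427683_at. Its ratio of 2.16 ± 0.23 (limma adjusted p = 0.00102) was matched by 2.05 ± 0.25 on a second probe set. The other immediate early genes of the list used here were not called: Egr1 was at -0.05, Egr3 at 0.08 and -0.01, Fos at -0.18, and the highest, Ier2, at 0.44 (limma adjusted p = 0.775).

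The other genes among the 20 with the highest ratios ran from 1.50 to 1.83. Shisa2, an endoplasmic reticulum protein that holds back Wnt and FGF receptors, read 8.25 and 7.73 with IRP2 and 6.47 and 5.84 without. Parp14, an ADP-ribosyltransferase, read 9.05 and 9.58 against 7.17 and 7.88, and Fxyd5, a modulator of the sodium pump, read 12.10 and 11.76 against 10.24 and 10.12. The remainder were Erg and Elf2, both ETS transcription factors; Hmces, which shields abasic sites in DNA; Dlg2, a membrane scaffold; Fam98b, of the tRNA ligase complex; Arfip2, an arfaptin; Prkg1, a cyclic GMP-dependent kinase; and Csf2rb, the shared beta chain of several cytokine receptors. Csf2rb read 10.96 and 10.94 with IRP2 and 9.46 and 9.44 without, a ratio of 1.50 ± 0.21 (limma adjusted p = 0.00746). Dlg2 read 5.77 and 5.04 against 3.75 and 3.62, with both controls below their array medians. Both IRP2 arrays lay above both controls in each of these 11 genes, but that was a condition for a place among the 20.

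The remaining named genes called higher had ratios from 0.82 to 1.49. Taf10, a subunit of general transcription complexes, read 11.11 and 11.23 with IRP2 and 9.50 and 9.87 without, a ratio of 1.49 ± 0.17, and Polr2e, an RNA polymerase subunit, had 1.42 ± 0.23. Among genes of protein folding, the chaperonin subunit Cct7 had 1.40 and 0.91 on its called probe sets, its helper Pdcl3 had 1.46, and the heat shock protein Hspa4l had 0.82. Chmp2b, a subunit of the machinery that pinches off membrane, read 9.01 and 8.53 against 7.41 and 7.32 on 1 probe set, with 1.41 ± 0.17 there and 1.25 ± 0.21 on another. The nuclear receptor Nr4a3 had 1.26, the glutathione transferase Gstt3 1.24, the centrosomal protein Cep57 1.14, the nuclear body protein Pml 1.12, the T cell adaptor Sla 1.02 and the muscle membrane protein Sgcb 0.99. Taf10, Polr2e, Hspa4l, Nr4a3, Pml, Sla and Sgcb also had uncalled probe sets. The lowest of each was at 0.17, 0.05, -0.31, 0.21, -0.0066, 0.34 and -0.11, in that order. In the controls that of Pml averaged 9.52, against 4.75 on its called probe set. Those of Hspa4l, Nr4a3 and Sla averaged 7.03, 7.15 and 7.53, against 6.58, 7.21 and 5.22. Those of Taf10, Polr2e and Sgcb averaged 5.62, 5.66 and 5.25, against 9.68, 8.21 and 7.65. These 3 lay near the control array medians of 5.39, and such low levels limit the ratio that can be read. In Gstt3 both controls, 4.20 and 4.04, lay below their array medians, as in Pml at 4.89 and 4.61 and Sla at 5.09 and 5.35. These genes were chosen after their values were seen.

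Lists of iron metabolism without a textbook IRE stayed near the median of all probe sets. At 0.376% of all tested, lists of this size would often hold no call, so a count of 0 is not a result about the genes. Of 39 probe sets of macrophage iron and heme recycling (23 genes), 0 were called, and the median ratio at the brightest probe sets was -0.0016. The heme oxygenase Hmox1 was at -0.23 with a 95% interval of -0.57 to 0.11, the haemoglobin scavenger receptor Cd163 at -0.0016 (-0.40 to 0.40), and Spic, the transcription factor of red pulp macrophages, at 0.18 and 0.11. Of 18 probe sets of iron uptake by red cell precursors, 0 were called; the mitochondrial iron importer Slc25a37 was at -0.09 and the highest, the mitochondrial transporter Abcb10, was at 0.42 (limma adjusted p = 0.593). Hepcidin control (18 probe sets) had 0 calls, with Bmp6, a ligand that induces hepcidin, at 0.09 and Hfe at -0.02 and -0.23. Of 17 heme synthesis probe sets only that of Alas2 was called, while those of Fech, which inserts the iron, lay between -0.04 and 0.23. The mRNAs of the IRPs themselves, Aco1 (-0.18 and 0.01) and Ireb2 (-0.03, interval -0.74 to 0.68), and the IRP2 degradation subunit Fbxl5 (-0.10) were not called.

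Lists of abundant mRNAs had medians slightly below 0. The 88 ribosomal protein probe sets (43 genes) had 0 calls and a median of -0.10 at the brightest probe sets, the 137 respiratory chain probe sets 0 calls and -0.08, and the 30 citrate cycle probe sets 0 calls and -0.08, against -0.05 for the brightest probe sets of all tested genes. Of 19 housekeeping probe sets 0 were called, and Actb was at 0.34 on its brightest (interval -0.07 to 0.75). No B cell, T cell, NK cell, red pulp macrophage, erythroid, plasma cell, neutrophil, megakaryocyte or stroma marker was called higher or lower in limma. Over their probe sets the highest ratio was that of the interleukin receptor Il7r on 1448576_at, 0.81 ± 0.18 (limma adjusted p = 0.142), and the lowest that of the adhesion molecule Vcam1 on 1415989_at, -0.68 ± 0.14 (limma adjusted p = 0.0793), both chosen after their values were seen. Both were called without the bone marrow arrays, as was the neutrophil granule gene Ngp, at 0.74 (limma adjusted p = 0.0227, against 0.399 with them).

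Cpb1, the pancreatic carboxypeptidase, was the exception to the separation of the arrays and among the markers. It read 9.87 and 11.77 with IRP2 and 8.82 and 10.10 without, so IRP2 array 1 lay below control 2, while within pairs the ratio was 1.05 and 1.66. The mean of 1.36 ± 0.17 was called (limma adjusted p = 0.00318). The other 12 pancreas genes had 0 calls, although Prss2 reached 0.77 on 1 of its 4 probe sets (limma adjusted p = 0.201) and was called there without the bone marrow arrays (limma adjusted p = 0.00384), with the other 3 between -0.20 and 0.17. The elastase Cela1 was at -0.13 and Reg1 at -0.30. Pancreas marker levels differed between the pairs, and their part in the Cpb1 ratio was not tested.

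Probe sets of 1 gene often disagreed. Of the 54 genes called higher, 15 had 1 tested probe set and 39 had several; in 9 of the 39 every tested probe set was called, and in 30 at least 1 was not. In 27 of those 30 the lowest probe set lay between -0.5 and 0.5. In 18 of the 30 the lowest uncalled probe set was brighter in the controls than the highest called one. Ralgapa1 was at 2.66 on 1458410_at and at 0.39 on 1428594_at (interval -0.02 to 0.79). Ino80d was at 2.17 on 1439180_at and at -0.02 on 1434841_at (-0.47 to 0.43), where the 4 arrays read between 8.81 and 8.87. Parp14 was at 1.79 and 0.22, Erg at 1.74 and 0.05, Dlg2 at 1.72 and -0.07, Elf2 at 1.54 and 0.06, and Madd, a guanine nucleotide exchange factor for Rab proteins, at 1.42 and -0.02. In the controls the uncalled probe sets of Parp14, Dlg2 and Madd averaged 10.05, 6.18 and 10.78. Those of Erg and Elf2 averaged 5.31 and 5.68, near the array medians, where low levels limit the ratio that can be read. Where each probe set lies on its transcript is not given in the files used here.

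**Figure D4:**
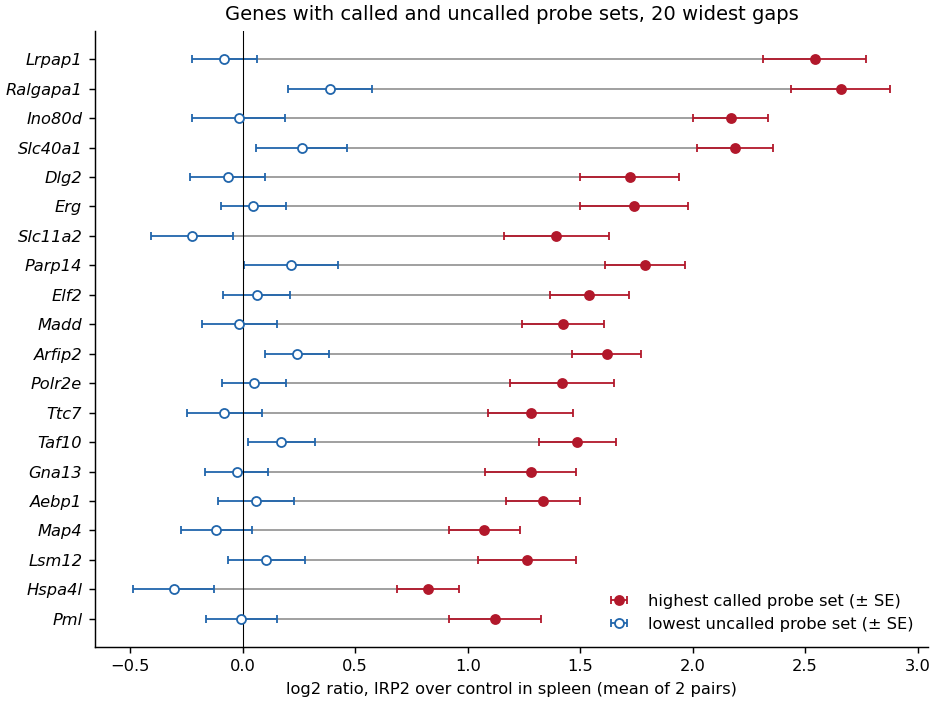
Log2 ratio in spleen (horizontal axis, ± SE) of the highest called probe set (filled) and the lowest uncalled probe set (open) for the 20 genes with the widest gap. The gap runs up to 2.62 in Lrpap1; all open circles lie within 0.5 of 0.

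The 4 lower probe sets were those of Marveld1, a membrane protein, Htra3, a secreted serine protease, Blmh, a cysteine hydrolase, and Txndc17, a thioredoxin-like reductase. Marveld1 read 11.14 and 10.50 with IRP2 and 11.94 and 11.88 without, a ratio of -1.09 ± 0.18 (limma adjusted p = 0.0196). Htra3 read 7.03 and 7.49 against 8.08 and 8.27, a ratio of -0.91 ± 0.17 (limma adjusted p = 0.0425). Blmh read 9.91 and 9.60 against 10.65 and 10.68, also -0.91, and Txndc17 read 9.57 and 9.51 against 10.29 and 10.58, a ratio of -0.90. In each the IRP2 arrays lay below both controls. The identifiers of Marveld1, Blmh and Txndc17 end in x_at or s_at, Affymetrix's mark for probes that can match several transcripts, so their RNA is uncertain. The same mark is on 10 of the 89 higher probe sets, among them Cxcl16 1449195_s_at, Fth1 1427021_s_at, and those given above for Polr2e and, at 1.40, Cct7. In the 4 other tissues Marveld1 ranged from -1.21 to -0.43, Blmh from -0.98 to -0.31 and Txndc17 from -0.78 to -0.52, whereas Htra3 ranged from -0.10 to 0.10.

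Most spleen ratios had the same sign elsewhere. Of the 89 higher probe sets, 87 had a ratio above 0 in duodenum, 88 in liver, 83 in bone marrow and 87 in brain. The same fit called 49 of them in duodenum (55.1% of the 89, and 66.2% of the 74 called there), 40 in liver (44.9%, and 75.5% of 53), 22 in bone marrow (24.7%, and 37.3% of 59) and 33 in brain (37.1%, and 94.3% of 35). In all 4 other tissues 9 were called, and in none of them 29. The tissues share no arrays, but they share the estimate of the spread. Spleen shares its diet with duodenum and liver alone; against bone marrow and brain, tissue, diet and age cannot be told apart.

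**Figure D5:**
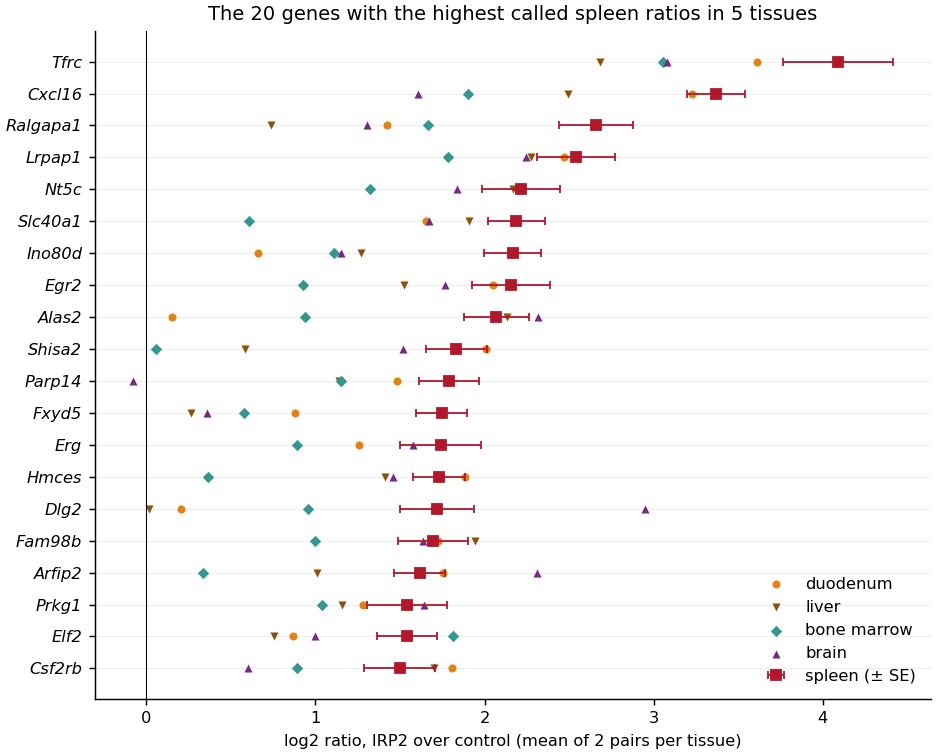
Log2 ratio of the IRP2 reaction to the control (horizontal axis, mean of 2 pairs) in 5 tissues for the 20 genes with the highest called ratios in spleen, at their highest spleen probe set; bars are SEs of the spleen ratio. On the probe sets shown, Tfrc, Cxcl16 and Ralgapa1 have their highest ratio in spleen, whereas Dlg2 reaches 2.95 in brain. The choice of probe set by its spleen ratio favours spleen. Tfrc 1452661_at, not shown, had 1.46 in spleen, 1.95 in duodenum, 2.78 in liver, 0.92 in bone marrow and 2.36 in brain.

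Tested directly, the spleen ratio exceeded the mean ratio of the other 4 tissues in 1 probe set (0.00423%) and fell below it in 0 (0%); at an unadjusted p under 0.05 limma gave 362 and 115. The 1 was Cxcl16 1418718_at, at 2.84 in spleen against 1.98 in duodenum, 1.22 in liver, -0.01 in bone marrow and 0.51 in brain, a difference of 1.91 ± 0.21 (limma adjusted p = 0.0256); the call is lost under quantile normalization and when either pair is left out. Its other probe set had 3.37 in spleen and 3.23, 2.49, 1.90 and 1.61 in the same order, a difference of 1.06 ± 0.19 (limma adjusted p = 0.423). Against duodenum and liver alone, a comparison chosen after the data were seen, 0 probe sets differed.

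Without the bone marrow arrays, the spleen ratio exceeded the mean of duodenum, liver and brain in 14 probe sets (0.0592%) and fell below it in 5 (0.0211%). The 14 included both Cxcl16 probe sets, Ralgapa1 (difference 1.50 ± 0.22), Fxyd5 (1.25 ± 0.15), Ino80d (1.14 ± 0.14), Cpb1 (1.12 ± 0.17), the secreted protein Aebp1 (0.97 ± 0.16) and Parp14 (0.94 ± 0.14). As for Ralgapa1, both spleen controls of Aebp1, 4.89 and 4.99, lay below their array medians, so it was tested through its IRP2 arrays only. Of the 3 tested Aebp1 probe sets 1 was called in spleen, and the lowest was at 0.06. Fxyd5 was at 1.75 in spleen and at 0.88, 0.26 and 0.36 in duodenum, liver and brain. The 5 included Tfrc 1452661_at, at 1.46 in spleen against 1.95, 2.78 and 2.36, a difference of -0.90 ± 0.15, and Ppp1r1b, a phosphatase inhibitor of dopamine signalling. The IRP2 arrays of this Tfrc probe set, 13.99 and 13.84, lie near the top of the range, where probes can saturate. Ppp1r1b read 5.93 and 5.90 with IRP2 in spleen and no less in the controls, a ratio of -0.05 ± 0.20. Its ratio was 0.44 in liver and 0.19 in bone marrow, also uncalled, and 2.58 in duodenum and 2.24 in brain.

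There were 12 genes called higher in spleen with no probe set called in another tissue. They included Cpb1, Aebp1, the protein kinase Prkch, the G protein subunit Gna13, the glycogenin Gyg and Tnfrsf1b, a receptor for tumour necrosis factor. Prkch read 10.19 and 9.83 with IRP2 and 8.61 and 8.78 without, a ratio of 1.32 ± 0.19, against 0.55 to 0.59 in the other tissues. Tnfrsf1b read 10.24 and 10.33 against 8.98 and 9.25, a ratio of 1.17 ± 0.21, against 0.56 to 1.16. With all tissues in the fit, the spleen difference of the genes named here missed the threshold; without the bone marrow arrays, Cpb1 and Aebp1 passed it, as given above. A call in spleen without one elsewhere does not by itself show a difference, and a missed threshold does not show its absence.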

How the data were processed

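The authors' deposited values are log2 probe set summaries, made per the series' design text with RMA, or with MAS5 in GCOS and quantile normalization; which of these gave these values, and versions, are not given in the sources used here. No further normalization was applied. Affymetrix controls (64) and 21380 probe sets below their own array's median on all 4 spleen arrays were left out. Gene names came from the platform annotation: 34958 probe sets had 1 symbol, 932 several and 9211 none, and only those with 1 are named. RefSeq held a gene ID for 34754, and 0 symbols changed.

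One model over the 20 arrays was made in limma 3.58.1 (R 4.3.3); each tissue's replicate number entered as a block, leaving 5 residual degrees of freedom beside 6.92 prior ones. Contrasts were IRP2 minus control per tissue, and spleen minus the mean of the other 4; the Benjamini-Hochberg adjustment ran over 23657 probe sets. The pairing follows the replica numbers and the parallel controls of the labels; deviations of same-numbered arrays correlated at 0.439 in spleen and at 0.238 to 0.918 in the other tissues. The fit was run on simulated data with the same spread in every tissue. In the real arrays the SD between pairs was 0.452 in bone marrow and 0.183 in spleen, and the simulation does not cover such unequal spread.

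Named were all probe sets of IRE mRNAs, the 20 highest called genes and up to 10 lowest with arrays apart, up to 4 members per list, 10 genes by the tissue difference, 10 by the gap between probe sets and up to 10 called in spleen alone; other names were chosen after their values were seen. Members and lists were chosen with earlier results of these data known. Alternatives covered the block, the arrays in the fit, the filter, the normalization, the variance prior and each pair.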

Additional observations from a re-analysis of the deposited data

Results flagged for a closer look

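Cxcl16 1418718_at had a spleen ratio 1.91 above the mean of the other tissues, a difference that passed its own test in limma but not under quantile normalization or with either pair left out. In 4 probe sets called higher in spleen, both pairs of another tissue lay below 0 while both spleen pairs lay above it, and these differences were not tested tissue by tissue. They were Epas1 1435436_at, at -0.72 in bone marrow, Gyg 1448429_at, at -0.35 in bone marrow, Parp14 1432548_at, at -0.0791 in brain, and Cpb1 1428102_at, at -0.0534 in bone marrow. Bone marrow control 1, which stood apart from the other bone marrow arrays, enters the bone marrow values. The pair ratios of bone marrow had a Pearson correlation of 0.035 over the tested probe sets, against 0.427 in spleen.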

How the results depend on the processing

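All 89 higher probe sets kept a ratio above 0 under each alternative in which they were fitted (70 of 70 under the stricter filter). The counts, with 9 IRE mRNA probe sets and 18 called members over all lists at the outset, moved more. Without the replicate block there were 26 higher, all among the 89, and 0 lower, 5 IRE mRNA probe sets and 9 list members called. With the spleen arrays alone, which leaves 1 residual degree of freedom, there were 665, 85 and, among list members, 28; without the bone marrow arrays there were 307, 31 and, for the difference from other tissues, 14 above and 5 below. Quantile normalization gave 55 higher and 0 for the difference above, centring the medians 2 lower, an intensity trend with a robust prior 2 lower, and no filter 2 for the difference above, which was 0 against duodenum and liver alone. Leaving out a pair gave 11 to 16 higher, 0 lower, 0 for the difference, 2 to 3 IRE mRNA probe sets and 6 to 7 list members; a lone pair is then assumed to vary like the other tissues. No named gene changed direction past the threshold. Dim controls limit the ratios of 20 of the 89, whose control mean lay below the 10th percentile of tested probe sets.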

Other observations

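Without the bone marrow arrays, limma called further named genes in spleen; those given here were chosen after their values were seen. Only called probe sets are given. Higher with IRP2 was Rapgef2, an exchange factor for the small GTPase Rap, at a log2 ratio of 1.42 (limma adjusted p = 3.46e-05). So were the deubiquitinase Bap1 at 1.25 and 1.24, the RNA helicase Dhx9 at 1.32 and 1.00, and the ubiquitin ligase Mkrn1 at 1.17, 1.10 and 0.71. The leukocyte phosphatase Ptprc was at 1.14, the chemokine receptor Cx3cr1 at 1.03 and the glucocorticoid receptor Nr3c1 at 0.89 and 0.69. The pairs of Ptprc were unequal, at 8.37 and 7.67 with IRP2 and 6.52 and 7.25 without. The ribosomal protein gene Rpl37a had 1 called probe set at 0.95. Lower were the B cell receptor-like protein Cd180 at -0.76, the clathrin light chain Clta at -0.73, Vcam1 at -0.68 and the antigen presentation gene H2-DMb2 at -0.65. None of these passed the threshold when the bone marrow arrays were in the fit.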
